A study of Homo sapiens with 6 samples.

Results

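The hnRNP and SR splicing factor genes were the protein-coding genes whose symbols begin with HNRNP or SRSF, together with TRA2A, TRA2B, PTBP1, PTBP2, PTBP3, SON, SRRM1 and SRRM2. The rule found 47 of the 60664 genes in the count table. The rule used gene names and no measured value. The libraries came from U-2 OS, an established human osteosarcoma cell line: 3 were made after transfection of control siRNA (siControl) and 3 after transfection of siRNA against SFPQ (siSFPQ), each at 30 nM. The RNA sequencing was part of a wider study of SFPQ and R-loops, which contain RNA:DNA hybrids, at DNA repeats. It asked what SFPQ depletion did to the transcriptome. The model is a single cancer cell line with transient knock-down, and the time between transfection and harvest is not given in the sources used here. The libraries are described as biological replicates without saying whether each came from its own transfection, so the p-values measure the spread between these libraries.

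Pre-mRNA splicing is carried out by the spliceosome, and the choice between competing splice sites is set largely by RNA-binding proteins that sit on exons and introns. SR proteins carry RNA-recognition motifs and a domain rich in arginine-serine repeats, bind exonic enhancers and usually favour inclusion of the exon. The hnRNP proteins coat nascent RNA and often, though not always, act as silencers. Many genes of both families also regulate themselves by splicing in a premature stop codon that sends their own transcript to nonsense-mediated decay. SFPQ itself is an RNA- and DNA-binding protein of the DBHS family, whose other human members are NONO and PSPC1.

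The targeted transcript was low in each siSFPQ library. SFPQ had 22338, 23139 and 21753 counts in siControl and 3140, 3863 and 3151 counts in siSFPQ, or -2.73 on the log2 scale (standard error, SE, 0.05; adjusted p = 6.34e-30). Adjusted p-values throughout come from the edgeR quasi-likelihood fit over all genes and the Benjamini-Hochberg method, unless another tool is named. Its partner NONO did not pass the test (log2 0.03, adjusted p = 0.504), while PSPC1, another DBHS protein, rose by 1.13 on the log2 scale. Total counts lay between 43469321 and 47119203 per library. Of the cell type markers, VIM, COL1A1, SPARC and FN1, which mark mesenchymal cells, averaged between 1040 and 2595 CPM (counts scaled to the library total), whereas COL1A2 averaged 0.961 CPM and TWIST1 had 0 counts in every library, and each of the 6 leukocyte markers averaged under 1 CPM. Markers moved between the conditions in each list, among the leukocyte markers PTPRC (log2 -1.61) and ITGAM (log2 2.21), both under 1 CPM. Of the 7 mesenchymal markers tested, VIM rose by 0.32 on the log2 scale and 4 fell, FN1, COL1A1, THY1 and SPARC (log2 -0.53, -0.35, -0.27 and -0.17). Of the 6 epithelial markers, KRT18, CLDN4 and CDH1 rose by 1.36, 1.75 and 0.76, the last not without siControl replicate 1, and of the 6 neural markers MAP2, RBFOX3, SYT1 and SNAP25 fell, with -3.22 for MAP2 and -1.64 for SNAP25, while TUBB3 and GFAP rose by 1.17 and 1.33. Their part in the changes of the splicing factor genes was not tested. In bulk RNA a lower share of expressing cells and less RNA per cell cannot be told apart.

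SFPQ knock-down shifted the splicing factor genes in both directions, by small amounts and more often down than up. Of the 47 genes, 43 had at least 10 counts in total and were tested, and with a cutoff of 0.05 on the adjusted p, 9 of these were higher and 21 lower in siSFPQ. The same rule called 22.4% of all 29022 tested genes higher and 22.1% lower. Because nearly all of these factors are abundant, genes with a mean of at least 1 CPM are the closer comparison: there 9 of 40 members were higher (22.5%) and 20 of 40 lower, beside 30.1% and 34.5% of 15641 genes. This comparison is still not matched in level. The 40 members had a median of 236 CPM, and protein-coding genes at 1 CPM or more a median of 31.7 CPM. The same limit holds for the shares of genes without overlap and for the sizes of change below. Scaling by library size alone in place of TMM moved the balance to 12 higher and 15 lower among the 43 genes, so that rises made up 44.4% of the calls in place of 30.0%. The normalized counts of the conditions did not overlap for 33 of the 43 genes, against 52.3% of all genes tested, and for 32 of the 40 at 1 CPM or more, against 69.6% of genes at that level.

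The sizes were modest beside those of the transcriptome. No member passed a log2 fold change of 1.5 in either direction, the threshold of the study's methods. Of all genes tested, 5.54% passed it upward and 4.77% downward. At 1 CPM or more, the closer comparison, 277 of 15641 genes passed it upward and 649 downward, so few members would be looked for there. A change of more than 0.25 in size on the log2 scale was measured for 10 of the 40 members at 1 CPM or more, against 52.7% of all genes at that level. Of these 40, SRSF4, TRA2A and HNRNPUL2 changed by more than 0.5 (against 28.5% of genes) and SRSF4 by more than 1 (against 11.6%). SRSF12, at a mean under 1 CPM, also changed by more than 1. The median log2 fold change of the tested members was -0.11, with a median size of 0.15 where genes at 1 CPM or more had 0.27. Small sizes were not particular to these genes. Among the splicing pathway lists described below, the median size was 0.12 for the core spliceosome and 0.13 for exon junction and nonsense-mediated decay. It was 0.14 for SR protein kinases and import, 0.26 for the minor spliceosome and 0.28 for other splicing regulators. The plot of log2 fold changes by protein family sets the members side by side.

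**Figure D1:**
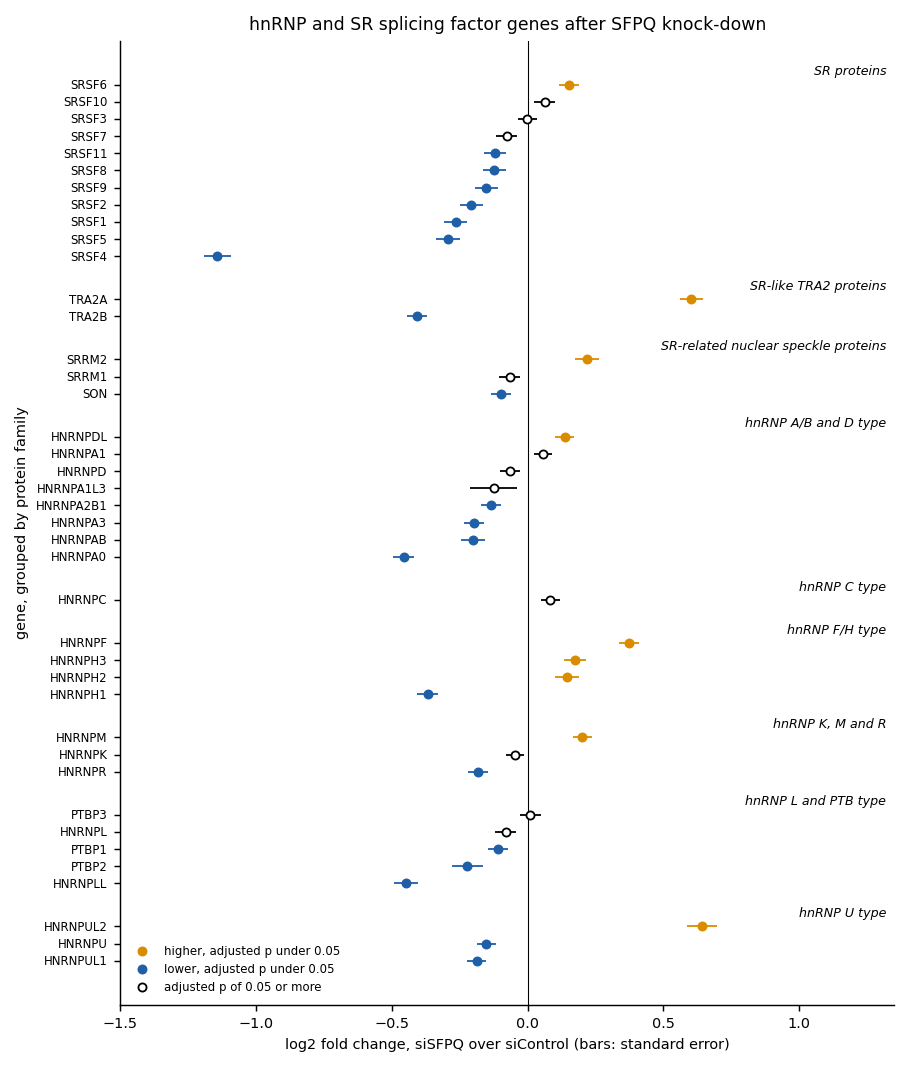
Log2 fold change (siSFPQ over siControl, x axis) of the 40 hnRNP and SR splicing factor genes with a mean of at least 1 CPM, grouped by protein family on the y axis, with bars of 1 standard error; filled points passed an adjusted p of 0.05. SRSF4 stands at -1.14, apart from the other SR proteins, and HNRNPUL2 (0.64) and TRA2A (0.60) lie farthest to the right.

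The 3 sequences that follow are the 250 bases before the RefSeq start of SRSF4 and HNRNPA0, the members at 1 CPM or more with the largest falls, and of HNRNPUL2, the one with the largest rise; they are shown so that the promoters of genes that moved in opposite directions can be read together (RefSeq, GRCh38.p14, all on the minus strand and written 5′ to 3′). TRA2A had no window in the table used here, and the window of HNRNPF lies inside the span that GENCODE gives this gene and is not shown. Capitals mark matches on either strand to the letters of a CCAAT box (CCAAT, or ATTGG on the other strand), a GC box (GGGCGG or CCGCCC) and an ETS core (CCGGAAG or CTTCCGG); no match overlapped another in these windows.
SRSF4, chr1:29181901-29182150: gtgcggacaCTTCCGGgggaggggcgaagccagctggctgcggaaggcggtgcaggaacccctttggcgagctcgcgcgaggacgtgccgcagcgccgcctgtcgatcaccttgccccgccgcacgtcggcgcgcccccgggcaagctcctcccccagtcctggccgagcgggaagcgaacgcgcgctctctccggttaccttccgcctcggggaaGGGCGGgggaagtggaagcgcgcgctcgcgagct
HNRNPA0, chr5:137754364-137754613: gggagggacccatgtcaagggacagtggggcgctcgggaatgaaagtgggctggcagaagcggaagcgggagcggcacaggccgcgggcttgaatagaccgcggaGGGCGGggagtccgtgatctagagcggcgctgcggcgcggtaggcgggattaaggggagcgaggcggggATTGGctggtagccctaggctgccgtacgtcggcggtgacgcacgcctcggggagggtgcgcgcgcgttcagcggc
HNRNPUL2, chr11:62727458-62727707: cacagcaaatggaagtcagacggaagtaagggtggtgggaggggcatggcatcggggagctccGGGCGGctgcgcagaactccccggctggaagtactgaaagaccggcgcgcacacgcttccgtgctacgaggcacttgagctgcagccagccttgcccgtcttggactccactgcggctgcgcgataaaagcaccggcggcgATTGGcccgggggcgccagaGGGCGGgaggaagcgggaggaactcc
All 3 windows are rich in G and C, from 66.4% in HNRNPUL2 to 73.6% in SRSF4. The window of SRSF4 held 1 ETS core and 1 GC box, that of HNRNPA0 1 CCAAT box and 1 GC box, and that of HNRNPUL2 1 CCAAT box and 2 GC boxes. Across the 42 members with a RefSeq window, CCAAT was found in 21 (against 34.8% of 15333 protein-coding genes), GGGCGG in 26 (61.9% against 56.7%), CCGGAAG in 5 (11.9%, against 1835 of the 15333), the cAMP response half-site TGACGT in 8 (19.0% against 8.77%) and TATAAA in 5 (11.9% against 9.22%), counting both strands. These are matches of letters and not measured binding.

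Among the 12 SR protein genes, 8 fell, 1 rose and 3 did not pass the test, with a median log2 fold change of -0.14. Of all genes at 1 CPM or more, 34.5% fell and 30.1% rose, and each class count below is read beside these shares. Under library size alone the falls of SRSF8, SRSF9 and SRSF11 were lost and SRSF10 passed as a rise. SRSF4 (ENSG00000116350, chromosome 1, 29147743 to 29181900, minus strand), which encodes a large SR protein also known as SRp75, had 3897, 3842 and 3591 counts in siControl and 1749, 1779 and 1620 in siSFPQ. Every siSFPQ library lay far below every siControl library. Normalized to effective library size, its level was 3782 ± 160 (SD, n = 3) in siControl and 1714 ± 106 in siSFPQ. The change was -1.14 on the log2 scale (SE 0.05, adjusted p = 7.56e-20), a level 54.7% lower. With each library left out in turn the change stayed between -1.18 and -1.08.

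SRSF12 showed a fall of similar size from a level near the limit of detection. This relative of SRSF10 had 26, 46 and 35 counts in siControl and 15, 18 and 14 in siSFPQ (log2 -1.19, SE 0.35, adjusted p = 0.00557), and the conditions did not overlap. Its standard error (SE) was far wider than that of SRSF4, at counts lower by orders of magnitude.

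The remaining SR proteins that fell did so by less. SRSF5, which binds exonic enhancers and is abundant in many cells, had 14561, 13336 and 14895 counts in siControl and 11870, 12140 and 11024 in siSFPQ (log2 -0.29, adjusted p = 7.94e-07). SRSF1, the founding SR protein, fell from 4886 ± 266 to 4068 ± 121 normalized counts (log2 -0.26), and SRSF2, a classical marker of nuclear speckles, from 7195 ± 493 to 6232 ± 189 (log2 -0.21). Both conditions were apart in each of these genes, with the lowest siControl library above the highest siSFPQ library. SRSF9, SRSF8 and SRSF11 had log2 fold changes of -0.15, -0.12 and -0.12, with adjusted p of 0.00254, 0.0178 and 0.0145, and these calls were lost when the counts were scaled by library size alone. SRSF8 is an intronless relative of SRSF2.

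SRSF6 was the one SR protein gene that rose. It regulates alternative exons and had 6267, 5986 and 6083 counts in siControl and 6581, 7034 and 6827 in siSFPQ (log2 0.15, adjusted p = 0.00109). SRSF3 and SRSF7, small SR proteins that also promote export of mRNA from the nucleus, had log2 fold changes of -0.0017 (adjusted p = 0.98) and -0.08 (adjusted p = 0.0953). SRSF10, a splicing repressor when dephosphorylated, stood at 0.06 (adjusted p = 0.207). Summed over the 12 genes, SR protein transcripts took 0.184% ± 0.00545 of all counts in siControl and 0.176% ± 0.0034 in siSFPQ (SD, n = 3), and the summed normalized count in siSFPQ was 0.917 times that in siControl.

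The paralogs TRA2A and TRA2B moved in opposite directions. They encode SR-like proteins, the human counterparts of the fly sex determination factor transformer-2, and bind GA-rich exonic enhancers. TRA2A (chromosome 7, 23504780 to 23532041) had 3442, 3720 and 3894 counts in siControl and 5550, 5591 and 5696 in siSFPQ, a rise of 0.60 on the log2 scale (SE 0.04, adjusted p = 9.37e-14). TRA2B (chromosome 3, 185914558 to 185938103) had 10154, 10717 and 10493 counts in siControl and 7628, 8124 and 7961 in siSFPQ, a fall of 0.41 (SE 0.04, adjusted p = 2.43e-11). Each gene separated the conditions without overlap, in opposite senses.

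The balance of the pair therefore shifted more than its sum. The ratio of TRA2A to TRA2B counts within a library was 0.339, 0.347 and 0.371 in siControl and 0.728, 0.688 and 0.715 in siSFPQ, 2.02 times as high. The pair together took 0.0303% ± 0.000703 of all counts in siControl and 0.0301% ± 0.000165 in siSFPQ, and their summed normalized count in siSFPQ was 0.953 times that in siControl. The ratio was formed after the values of both genes were seen and is given without a test. The plot of 6 genes by library shows both paralogs.

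**Figure D2:**
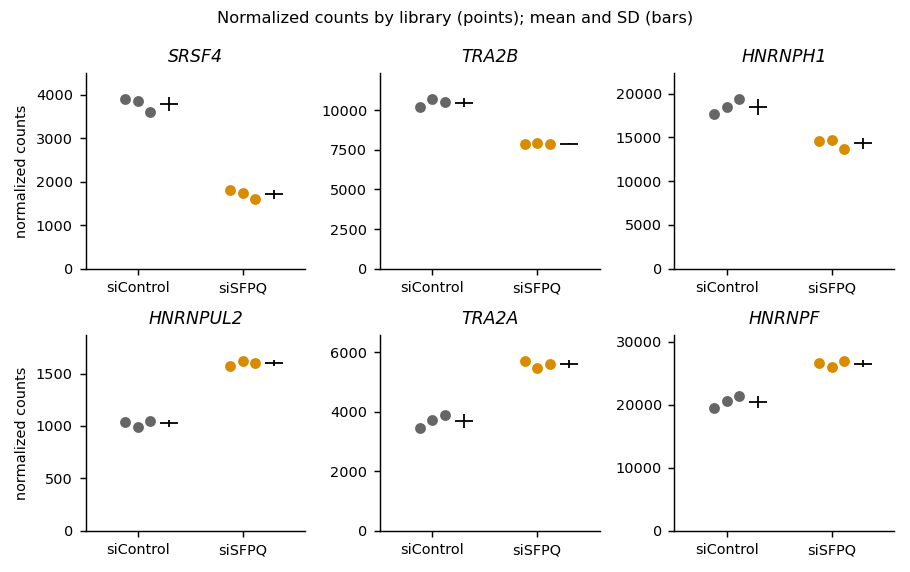
Normalized counts (y axis, from 0) in each library (points) of siControl and siSFPQ, with mean and SD of 3 libraries, for SRSF4, TRA2B, HNRNPH1, HNRNPUL2, TRA2A and HNRNPF. The upper 3 genes are lower and the lower 3 higher in every siSFPQ library than in any siControl library.

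Of the SR-related proteins of nuclear speckles, the bodies where splicing factors are stored, SRRM2 rose, SON fell slightly and SRRM1 did not pass the test. SRRM2, a large scaffold of the speckle, had 44408, 41962 and 39385 counts in siControl and 49575, 51801 and 45301 in siSFPQ (log2 0.22, adjusted p = 8.66e-05). Its highest siControl library was close to its lowest siSFPQ library, yet the conditions did not overlap. SON, the other speckle scaffold, changed by -0.10 (adjusted p = 0.0258), a call lost under library size alone (log2 -0.04). SRRM1, a splicing coactivator, changed by -0.07 (adjusted p = 0.172).

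The hnRNP F and H genes, whose proteins bind runs of G, included 3 that rose and 1 that fell. HNRNPF (chromosome 10, 43385617 to 43409186) had 19445, 20559 and 21283 counts in siControl and 25816, 26504 and 27339 in siSFPQ, a rise of 0.37 on the log2 scale (SE 0.04, adjusted p = 2.27e-10). HNRNPH1 (chromosome 5, 179614178 to 179634784) had 17579, 18431 and 19356 counts in siControl and 14178, 15021 and 13827 in siSFPQ, a fall of 0.37 (SE 0.04, adjusted p = 1.29e-09). The changes were nearly equal in size and opposite in sign, and neither gene overlapped between the conditions.

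The ratio of HNRNPF to HNRNPH1 counts, not corrected for exon length and formed after the values were seen, lay between 1.10 and 1.12 in the siControl libraries and between 1.76 and 1.98 in the siSFPQ libraries, 1.67 times as high on average. HNRNPH3 rose by 0.17 (adjusted p = 0.000403). HNRNPH2 rose by 0.14 (adjusted p = 0.0069), a call lost without siControl replicate 1 (log2 0.08, adjusted p = 0.0946).

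The hnRNP U genes were split as well. HNRNPU, also called SAF-A, binds chromatin-associated RNA, and HNRNPUL1 and HNRNPUL2 are its relatives with roles in the DNA damage response. HNRNPUL2 (chromosome 11, 62712630 to 62727457) had 1034, 987 and 1048 counts in siControl and 1521, 1659 and 1625 in siSFPQ, the highest rise by value and close to that of TRA2A (log2 0.64, SE 0.06, adjusted p = 1.02e-11). HNRNPUL1 had 21172, 22488 and 21151 counts in siControl and 18362, 19931 and 18791 in siSFPQ (log2 -0.19, adjusted p = 5.67e-05). HNRNPU fell by 0.15 on the log2 scale (adjusted p = 0.000632), from 43365 ± 1606 to 39029 ± 1006 normalized counts.

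In the annotation, 44.3% of the exon bases of HNRNPUL2 also lie in exons of the read-through gene HNRNPUL2-BSCL2 on the same strand, which had 0 counts in every library. How reads shared between these genes were counted is not given in the sources used here, so the level of HNRNPUL2 is uncertain in both conditions.

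Of the 9 genes of the hnRNP A/B and D type, 8 were tested, of which 4 fell and 1 rose. HNRNPA0, which binds AU-rich elements of mRNA, had 11561, 12572 and 12619 counts in siControl and 8750, 8950 and 9175 in siSFPQ (log2 -0.46, SE 0.04, adjusted p = 6.25e-12). Its fall was close in size to that of HNRNPLL, the next among the hnRNP genes, and left a clear gap between the conditions. HNRNPAB and HNRNPA3, RNA-binding relatives of hnRNP A1, each fell by 0.20 on the log2 scale. HNRNPA2B1, which packages nascent RNA and represses exons, had 70454, 74263 and 77413 counts in siControl and 65545, 70759 and 66780 in siSFPQ. The raw counts overlapped, the normalized counts did not, and the log2 fold change of -0.13 (adjusted p = 0.00256) shrank to -0.07 under library size alone, where it no longer passed the test.

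HNRNPA1, the best known splicing silencer of the family, had 60913, 64093 and 65379 counts in siControl and 63475, 68069 and 67100 in siSFPQ. It did not pass the test (log2 0.06, adjusted p = 0.195), nor did HNRNPD (log2 -0.06, adjusted p = 0.165), also called AUF1. HNRNPDL, the relative of HNRNPD that lies beside it on chromosome 4, rose from 17587 ± 419 to 19322 ± 510 normalized counts (log2 0.14, adjusted p = 0.00212). HNRNPA1L3 had between 436 and 534 counts with overlapping conditions (adjusted p = 0.256).

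The hnRNP L and polypyrimidine tract-binding genes contained 3 falls, no rise and 2 genes that did not pass the test. HNRNPLL, which silences variable exons of the leukocyte antigen CD45 in T cells, had 3382, 3574 and 3303 counts in siControl and 2496, 2503 and 2543 in siSFPQ (log2 -0.45, SE 0.04, adjusted p = 1.69e-10). All siSFPQ libraries were within a narrow band below the siControl range. PTBP2, the paralog that neurons use in place of PTBP1, fell from 1576 ± 78.7 to 1351 ± 70.1 normalized counts (log2 -0.22, adjusted p = 0.00141). PTBP1, the general repressor of the group, changed by -0.11 (adjusted p = 0.0137) but not under library size alone (log2 -0.05, adjusted p = 0.299). HNRNPL, which binds CA repeats, stood at -0.08 (adjusted p = 0.0837) and PTBP3 at 0.01 (adjusted p = 0.862).

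The ratio of PTBP1 to PTBP2 counts was 12.6 ± 0.824 in siControl and 13.6 ± 0.996 in siSFPQ, and its values overlapped between the conditions.

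Among the remaining hnRNP genes, HNRNPM rose from 16605 ± 234 to 19094 ± 135 normalized counts (log2 0.20, adjusted p = 1.02e-05) and HNRNPR fell from 19499 ± 638 to 17186 ± 172 (log2 -0.18, adjusted p = 7e-05). Replicate spread was small in both genes, and the conditions were apart. HNRNPK, a C-rich RNA binder, had a log2 fold change of -0.05 (adjusted p = 0.292). HNRNPC, which binds U tracts and keeps Alu elements from being spliced in as exons, had 28410, 28980 and 30614 counts in siControl and 29738, 31622 and 32211 in siSFPQ. Its log2 fold change of 0.08 fell short of the threshold (adjusted p = 0.0585) and passed it with DESeq2 (adjusted p = 0.0293) and under several other alternatives.

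The HNRNPC-like genes of chromosome 1 and 2 other members were close to or at 0. HNRNPCL1 had 2, 0 and 8 counts in siControl and 1, 6 and 1 in siSFPQ, and HNRNPCL4 had between 1 and 8 counts per library. Neither passed the test. HNRNPCL2 had 1 count in siControl replicate 2 and 1 in siSFPQ replicate 2, and HNRNPCL3, HNRNPA1L2 and HNRNPUL2-BSCL2 had 0 counts in every library. A count of 0 allows a level of up to 0.0637 to 0.069 CPM of the unadjusted library total, depending on the library. That is the level that 3 counts give, and this limit covers counting error only. It does not apply to HNRNPA1L2 and HNRNPUL2-BSCL2, whose exon bases all lie in exons of other genes on the same strand, since how such reads were assigned is not given in the sources used here.

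The heat map of the members by library shows how closely the replicates of a condition followed each other. Within the siControl libraries the shades stay near 0, while the siSFPQ libraries share the direction of the changes at the top and at the foot of the map.

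**Figure D3:**
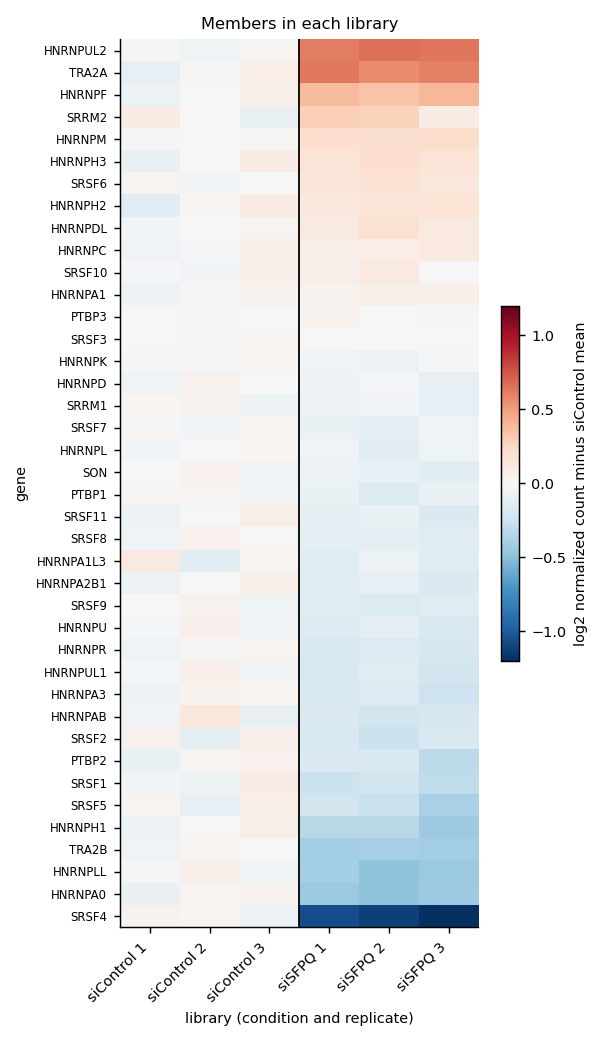
Log2 normalized count of each gene at a mean of at least 1 CPM (rows, ordered by log2 fold change) in each library (columns) minus its siControl mean; red is higher and blue lower. HNRNPUL2, TRA2A and HNRNPF are red and SRSF4, HNRNPA0, HNRNPLL and TRA2B blue in all 3 siSFPQ libraries.

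Per length of annotated exon, the members differed far more from each other than between the conditions. In CPM per kilobase of exon, HNRNPA1 was highest in siControl at 207 ± 7.54, followed by HNRNPK at 153 ± 2.57 and HNRNPF at 137 ± 6.23. HNRNPF, HNRNPA2B1 (129 ± 6.09) and HNRNPAB (121 ± 9.57) overlapped with their neighbours in this order, while HNRNPA1 and HNRNPK stood apart from the next gene below. In siSFPQ the level of HNRNPF was 177 ± 3.51, above that of HNRNPK at 148 ± 2.44, which reversed the order of these genes.

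SRSF5 (58.3 ± 3.43), SRSF3 (54.7 ± 1.27) and SRSF2 (52.9 ± 3.62) were the highest SR protein genes on this scale, and from HNRNPM down to HNRNPR each gene overlapped with the next. SRSF4 lay near the foot of the order, at 9.39 ± 0.398 in siControl and 4.26 ± 0.262 in siSFPQ. HNRNPUL2 rose from 4.15 ± 0.135 to 6.47 ± 0.112, with which it passed HNRNPA1L3 (5.67 ± 0.475 and 5.20 ± 0.15) and SRSF4. PTBP2 was at 1.71 ± 0.0854 and SRSF12 at 0.172 ± 0.0481 in siControl. TRA2A rose from 22.9 ± 1.43 to 34.8 ± 0.79, and TRA2B fell from 17.5 ± 0.46 to 13.2 ± 0.0875. The length covers every annotated exon: 13084 bases for TRA2B, 3516 for TRA2A and 22512 of the 23923 spanned by HNRNPU. This order therefore need not be that of transcript numbers. By normalized counts TRA2B stood above TRA2A in siControl (means of 10470.5 and 3691).

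As a pool, all 47 genes held between 1.39% and 1.42% of the counts in the siControl libraries and between 1.40% and 1.45% in the siSFPQ libraries, so the ranges overlapped. These shares are of raw counts. The summed normalized count in siSFPQ was 0.973 times that in siControl, so the direction depends on the scaling. The hnRNP F and H genes went from 0.125% ± 0.00571 to 0.140% ± 0.001 of counts and the hnRNP U genes from 0.141% ± 0.00419 to 0.133% ± 0.00397. Their summed normalized counts in siSFPQ were 1.07 and 0.903 times those in siControl. Within families, further ratios of counts shifted without overlap between the conditions: HNRNPUL2 to HNRNPUL1 from 0.0474 ± 0.00308 to 0.0842 ± 0.002, SRSF4 to SRSF6 from 0.618 ± 0.026 to 0.252 ± 0.0143, and HNRNPA1 to HNRNPA2B1 from 0.857 ± 0.0112 to 0.978 ± 0.0231. These pairs were also chosen after the values were seen, and no test was run on them.

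These genes share features that the naming rule did not use. They are compact: the median span from start to end, introns included, was 21.3 kb for the 40 genes at 1 CPM or more and 35.2 kb for the 12958 protein-coding genes at that level. Only PTBP2 (102 kb) and PTBP3 (116 kb) spanned more than 100 kb, 5.0% of these genes against 21.7%. Short spans were not particular to them: in the core spliceosome list only DHX8, AQR and CWC27 spanned more than 100 kb. The longest minor spliceosome gene was ZRSR2 at 40.5 kb. Of all 135 other splicing pathway genes at that level, 24 were over 100 kb. An annotated transcript with a premature stop of the kind that nonsense-mediated decay removes was present in 80.0% of the 40 members, against 46.7% of protein-coding genes. A retained-intron transcript was present in 77.5% of the members, against 59.8%. Their median level was 236 CPM, against 31.7 CPM. Counts per gene sum all these transcripts, so a switch between isoforms cannot be seen in them.

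Span went with the direction of change in the transcriptome at large, where 26.5% of protein-coding genes over 100 kb and 2.27% of shorter ones had a log2 fold change below -1. Among the splicing factor genes, 1 of 38 shorter genes, SRSF4 with a span of 34.2 kb, and neither of the 2 longer genes lay below -1. Spearman's rho of span with log2 fold change was -0.11 over the 40 genes and -0.30 over all 12958 protein-coding genes, given as a description since genes of one set of libraries are not independent.

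Beyond the hnRNP and SR families, the splicing pathway held larger falls, chiefly in a few genes of wide span. Of 12 kinases, phosphatase and import factors that act on SR proteins, 3 rose and 5 fell, with a median of -0.04, and under library size alone 5 rose and 1, SRPK2, fell. SRPK2, a kinase that phosphorylates SR proteins in the cytoplasm, had 4022, 4275 and 4492 counts in siControl and 1045, 1156 and 1206 in siSFPQ (log2 -1.91, SE 0.05, adjusted p = 1.4e-25). Its paralog SRPK1 rose by 0.14, CLK2, a kinase of SR proteins in the nucleus, by 0.29 and TNPO1, an importin, by 0.21. TNPO3, which carries SR proteins into the nucleus, and PPP1CA, a phosphatase subunit, fell (log2 -0.15 and -0.13), calls lost under library size alone (adjusted p = 0.0637 and 0.132). SRPK2 spans 289 kb and SRPK1 88.4 kb.

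Of 48 other splicing regulators tested, 9 rose and 24 fell, with a median of -0.18. Past 1.5 on the log2 scale 6 fell, beside 4.77% of all genes tested. These 6 include RBFOX1 and KHDRBS2, at means of 0.836 and 0.404 CPM. RBFOX3 and NOVA1 fell (log2 -2.84 and -2.08), from at most 301 and 694 counts in a siControl library, as did MBNL3 of the muscleblind family (log2 -2.07). NOVA2, RBM25 and RBM38 rose by 0.50, 0.43 and 0.36. In the core spliceosome, 17 of 54 genes rose and 14 fell with a median of 0.02, or 25 and 11 under library size alone. CWC27, SF3B3 and SNRPD3 fell (log2 -1.53, -0.84 and -0.61), and SF3A2, PRPF3 and SF3B4 rose by 0.47, 0.40 and 0.38. In the minor spliceosome, which removes a rare class of introns, 2 of 9 rose (CENATAC by 0.31 and ZRSR2 by 0.26, the latter lost with DESeq2 and with some libraries left out) and 5 fell, among them ZCRB1, SNRNP25 and RNPC3 (log2 -0.55, -0.39 and -0.30). Of 19 genes of the exon junction complex and nonsense-mediated decay, 2 rose (SMG8 by 0.21 and EIF4A3 by 0.13, the latter lost without siControl replicate 2 or siSFPQ replicate 3) and 8 fell, led by the endonuclease SMG6 at -1.46 with 1737, 1738 and 1712 counts in siControl and 602, 692 and 600 in siSFPQ, then UPF3B at -0.46 and SMG9 at -0.34. Each list is read against 30.1% higher and 34.5% lower among genes at 1 CPM or more, and no list was tested as a set. The other splicing regulators and the core spliceosome also hold genes under 1 CPM. Over all genes tested, 22.4% were higher and 22.1% lower.

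Some counts carry limits of annotation. Among the tested members, over 10% of exon bases lay in exons of other genes for HNRNPA3 (54.8%), SRSF9 (46.7%), SRSF1 (35.1%), SRSF2 (27.7%), HNRNPU (19.0%), HNRNPH2 (15.8%), SRSF6 (13.4%) and HNRNPA2B1 (12.5%) beside HNRNPUL2, and the strand setting of the counting is not given in the sources used here, so these levels are uncertain. SRSF4 had 1.92%, and TRA2A, TRA2B, HNRNPF, HNRNPH1 and HNRNPA0 had 0%. Processed pseudogenes resemble several members closely. The 74 HNRNPA1 pseudogene rows together held 1.93% to 2.33% as many counts as HNRNPA1 itself, and the 16 of HNRNPA3 2.37% to 2.80% of their parent.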

How the data were processed

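RNA of U-2 OS cells was sequenced in 3 siControl and 3 siSFPQ libraries, made with a stranded mRNA kit. The authors aligned the reads with STAR (2.7.9a in the submitters' processing notes) to Ensembl GRCh38 and deposited raw counts per gene. All 6 columns were used.

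Genes with at least 10 counts in total (29022 of 60664) were fitted with edgeR 4.0.16 in R 4.3.3 (TMM, quasi-likelihood fit and test without covariates), and p-values were adjusted by Benjamini-Hochberg over all of them. Calls needed an adjusted p under 0.05, and for the fold threshold also a log2 fold change past 1.5. With 43469321 to 47119203 counts per library, 3 counts correspond to 0.0637 to 0.069 CPM of the unadjusted library total. Normalized counts are counts divided by effective library size. Positions, classes and exon lengths (the union of annotated exons) come from GENCODE release 44 on GRCh38, matched for 99.67% of identifiers, and promoter sequences from RefSeq.

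Every member was named, with SFPQ, NONO, PSPC1, the cell type markers and, per pathway list, at most 3 rises and 3 falls at an adjusted p under 0.05, at 1 CPM or more on average, without overlap between the conditions. The members and lists were chosen with earlier results of these data known. Scripts were tested on simulated counts. Replicates differed by more than sampling noise. Alternatives were other filters, normalizations (RLE, library size), DESeq2 1.42.0, a replicate block, protein-coding genes only, fold thresholds of 0.5 and 1, and each library left out.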

Additional observations from a re-analysis of the deposited data

How the results depend on the processing

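Of the 30 calls at an adjusted p under 0.05, 23 held under all alternatives (8 of 9 higher, 15 of 21 lower). The exceptions were SRSF8, SRSF9, SRSF11, HNRNPA2B1, PTBP1, SON and HNRNPH2, each with a log2 fold change of at most 0.15 in size. Library size alone lost SRSF8, SRSF9, SRSF11, HNRNPA2B1, PTBP1 and SON, gained HNRNPA1, SRSF10 and HNRNPC, and moved the median of all genes by 0.06. Leaving out each library gave 8 to 10 higher and 18 to 22 lower members. With fold thresholds of 0.5 and 1 in place of 1.5, 2 members were lower at each, and 2 were higher at 0.5.

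Under library size alone the class medians were -0.074 for SR proteins, 0.16 for TRA2, -0.0034 for speckle proteins, -0.066 for hnRNP A/B and D, 0.22 for F/H, 0.017 for K, M and R, -0.046 for L and PTB and -0.088 for U, and the kinase and import list had 5 higher and 1 lower. With libraries left out that list had 3 to 5 lower, the minor spliceosome 1 to 2 higher (1 with no count filter or DESeq2), the exon junction list 1 to 2 higher, and the hnRNP C median ran from -0.57 (without siControl replicate 1) to 0.31 (without siControl replicate 3), resting on genes of a few counts.

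The signs that turned belong to genes that did not pass the test. Without each library in turn, HNRNPCL1 ran from -1.62 to 1.30, HNRNPCL4 from -0.58 to 0.31, SRSF3 from -0.018 to 0.017 and PTBP3 from -0.0016 to 0.031. HNRNPK gave 0.017 under library size alone. SRSF3 gave 0.0029 with filterByExpr, 0.062 under library size alone and 0.0089 with protein-coding genes only. PTBP3 gave -0.00029 with no count filter.

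Same-numbered libraries showed no strong shared deviation (correlations of -0.0251, 0.0697 and 0.0355 over 15641 genes). Those of unlike number ran from -0.0723 to 0.0347. Such values cannot show whether same-numbered libraries were prepared together, so a pairing stays unknown. With the replicate block, 11 members were higher and 23 lower, SFPQ stood at -2.74, the hnRNP C median at 0.0047 and HNRNPCL4 at 0.0047.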

Other observations

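Several proteins of hnRNP complexes carry symbols that do not begin with HNRNP. They were measured in the list of other splicing regulators and were singled out after their values were seen. RBMX, known as hnRNP G, had 12953, 13927 and 13918 counts in siControl and 11427, 12332 and 12061 in siSFPQ (log2 -0.19, adjusted p = 5.56e-05 in edgeR's quasi-likelihood test), and PCBP2, known as hnRNP E2, fell by 0.14 on the log2 scale (adjusted p = 0.00387). SYNCRIP, known as hnRNP Q and a close relative of HNRNPR, had 2654, 2846 and 2973 counts in siControl and 3017, 3385 and 3177 in siSFPQ (log2 0.17, adjusted p = 0.00233), where HNRNPR fell by 0.18. RALY, a relative of HNRNPC, had a log2 fold change of -0.01 and overlapping conditions (adjusted p = 0.917).

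The cold-inducible RNA-binding proteins RBM3 and CIRBP, chosen likewise, moved in opposite directions. RBM3 had 9979, 10103 and 10523 counts in siControl and 4629, 5192 and 4640 in siSFPQ (log2 -1.09, adjusted p = 2.54e-21) and spans 6.71 kb. CIRBP rose by 0.21 on the log2 scale (adjusted p = 3.35e-05).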
